A study of Rattus norvegicus with 12 samples.

Results

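The comparison is of the deep and the superficial sublayer of the CA1 pyramidal cell layer within chronically epileptic rats. Its members are the 6 libraries labelled epileptic, 1 deep and 1 superficial library from each of 3 rats, out of 12 libraries from 6 rats in the series. The epileptic animals were male Wistar rats, given as adults of 45 to 50 days in the labels, that received hourly intraperitoneal kainate at 5 mg/kg until status epilepticus, followed by diazepam at 4 mg/kg. RNA was taken 6 to 8 weeks after status, in the chronic phase, although the labels report that seizures were observed or recorded in a part of the animals rather than in each one. The 6 control libraries come from 3 rats of the same strain, sex and age that received vehicle, and they are used here to set each sublayer difference beside its value without epilepsy. Cell bodies of each sublayer were cut by laser from frozen sections of 20 µm, and total RNA was sequenced.

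CA1 pyramidal cells are the main output neurons of the hippocampus, and they are stacked in a layer that is not uniform. Deep cells, next to the stratum oriens, are born earlier than superficial cells, next to the stratum radiatum, and the 2 populations differ in calbindin content, in their inputs from interneurons and in their firing during hippocampal rhythms. Kainate activates ionotropic glutamate receptors, and the status epilepticus it triggers is followed after a latent period by spontaneous seizures, with loss of CA1 neurons and gliosis that vary between animals. Microdissected tissue also holds glia, vessels and interneuron bodies that lie within the layer. In such bulk samples, fewer cells of a type and less RNA per cell cannot be told apart. Genes appear under their Ensembl identifiers, since no symbols stand beside these in the files and 0 of 32662 could be matched to the gene table used. For that reason no gene function is given, the marker genes of CA1, glia and other cells could not be looked up, and the labelled tissue was not checked against them.

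The 6 epileptic libraries held 20623196 to 25893962 counts assigned to genes, and 18843 to 19558 identifiers had at least 1 count. In each epileptic rat the superficial library was the more evenly spread one. In deep libraries 462, 275 and 256 identifiers held the first 50% of all gene counts in rats 1, 2 and 3, and in superficial libraries 570, 366 and 354. The same order was seen in all 3 control rats, with means of 540 in deep and 610 in superficial libraries. The single most abundant identifier took 16.6, 22.8 and 22.5% of the gene counts in deep and 11, 18.7 and 19.1% in superficial libraries of rats 1, 2 and 3. It was higher in deep tissue (log2 fold change −0.47, SE 0.09, adjusted p = 0.00963 in edgeR's quasi-likelihood test), with −0.51 in control rats. The share of alignments outside annotated exons fell from deep to superficial in rat 1, from 43 to 37.7%, and in rat 2, from 26.7 to 25.3%. In rat 3 it rose from 22.3 to 25.6%, whereas it fell in all 3 control rats. Alignments without a unique place moved the other way. Their share rose from 25.2 to 30.6% in rat 1 and from 37.9 to 42.3% in rat 2. In rat 3 this share fell from 45.6 to 42.5%, and in all 3 control rats it rose. Over 6 such library measures the exact sign-flip permutation test on 3 rats gave p = 0.25 at the lowest, the smallest two-sided value it can give, and an adjusted p of 0.6 (n = 3).

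Rats differed from each other more than sublayers did. In a principal component analysis of the 6 libraries (log2 CPM, counts scaled to library size), the first component carried 66.7% of the variance and separated the rats. Both libraries of rat 1 lay at −42.1 and −44.8 (deep, superficial), those of rat 2 at −5.15 and 1.58, and those of rat 3 at 37 and 53.5. Components 2 and 3, with 13.1 and 10% of the variance, were those on which the sublayers parted. Superficial libraries of rats 1, 2 and 3 had lower values than the deep library of the same rat on component 2, at −2.64 against 20.2, −27.5 against −9.26 and 1.1 against 18.1. On component 3 the values were −22.9 against 8.7, 2.87 against 20.9 and −12.4 against 2.77. The sublayers were therefore compared within each rat.

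**Figure D1:**
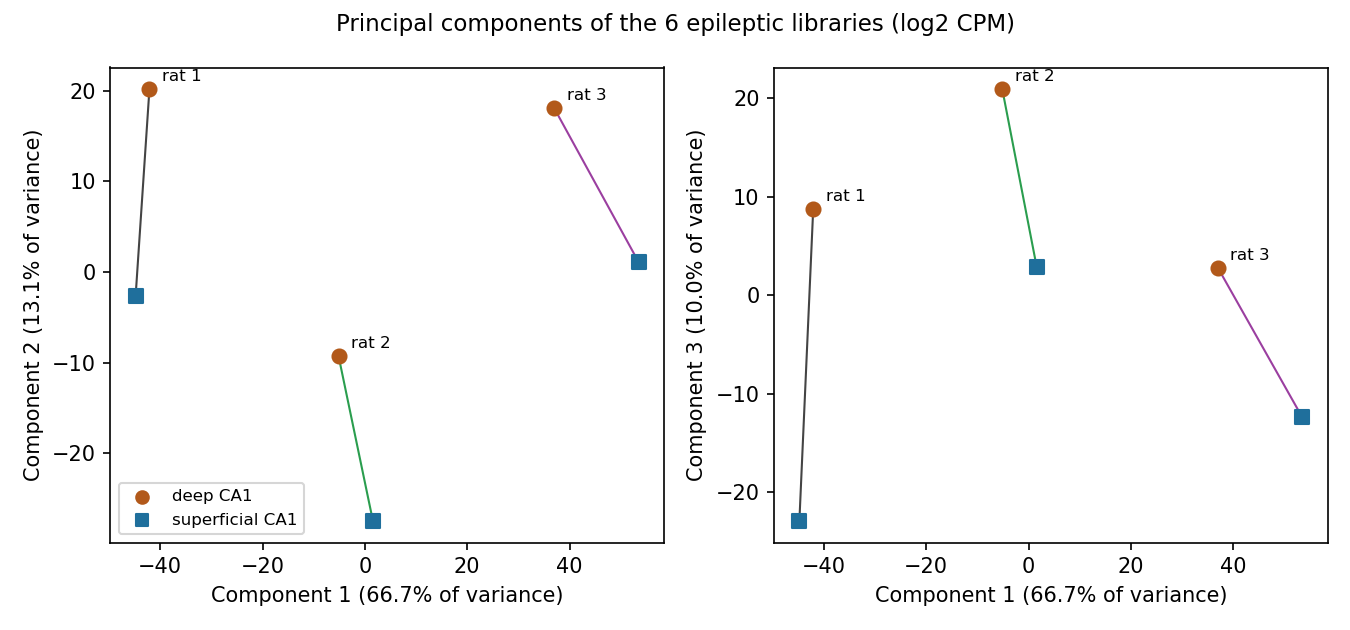
Principal components of the 6 epileptic libraries, with component 1 on both x axes and components 2 and 3 on the y axes (percent of variance in the labels). Circles are deep and squares superficial libraries, and a line joins the sublayers of 1 rat. Rats spread along component 1 from −44.8 to 53.5, and every line runs downwards from deep to superficial on components 2 and 3.

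Deep and superficial CA1 of epileptic rats differed in 727 of 14454 identifiers tested, or 5.03%. Of these, 303 (2.1% of those tested) were higher in superficial and 424 (2.93%) higher in deep tissue. The 6 epileptic libraries were tested with edgeR's quasi-likelihood method and the rat as a block, and an identifier is termed called where its adjusted p lay below 0.05. Without adjustment, 3012 identifiers (20.8%) had a p below 0.05. The called differences were small to moderate. Their median log2 fold change, superficial relative to deep, was 0.49 for those higher in superficial and −0.40 for those higher in deep tissue, where the median absolute value over all identifiers was 0.13. At least 1.5-fold higher were 126 identifiers in superficial and 94 in deep tissue, and at least 2-fold higher 41 and 27. The smallest called difference was 0.22 and the largest 2.17 on the log2 scale. Of the 727, 708 had the same sign in all 3 rats, as had 42.4% of all identifiers, a property for which a test within rats selects.

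The sublayers seldom separated in their raw ranges. All 3 superficial libraries lay above all 3 deep libraries in 617 identifiers (4.27%) and below them in 790 (5.47%), together 9.73%. This share was not set against the one that libraries without a sublayer difference would give. Among the called identifiers, 116 of 303 superficial-higher and 217 of 424 deep-higher ones were free of overlap. The remaining calls thus rest on the difference within each rat, not on separate ranges. A fit without the rat as a block called 0 identifiers, with 573 at an unadjusted p below 0.05, while DESeq2 with the block called 423, limma-voom 778 and a single edgeR model of all 12 libraries 1484.

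**Figure D2:**
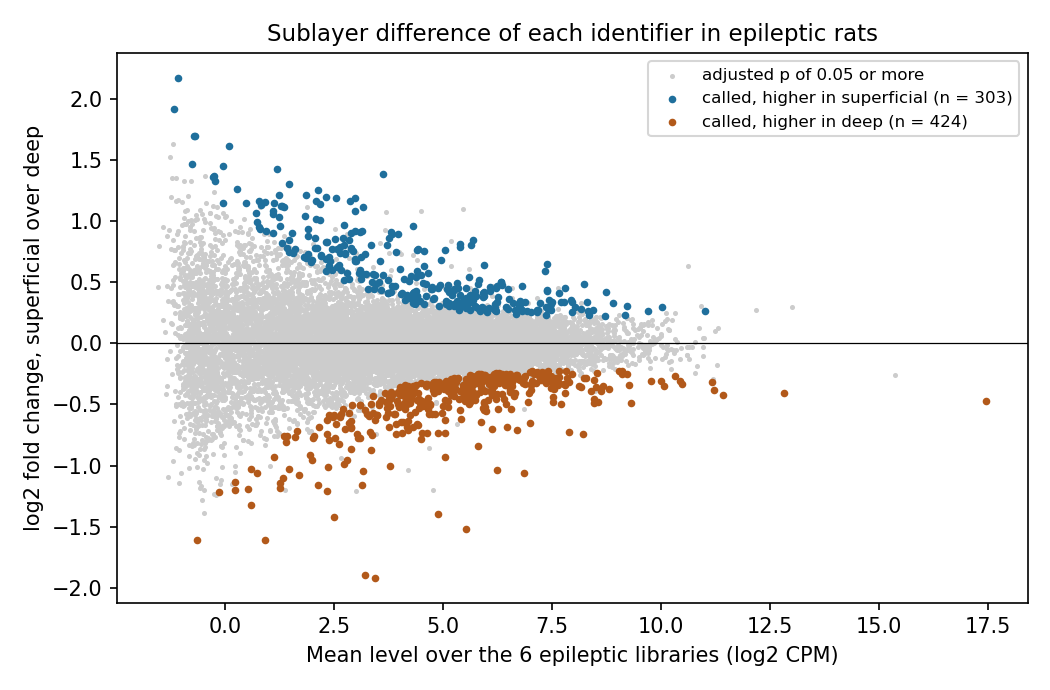
Each point is 1 of 14454 identifiers, with its mean level over the 6 epileptic libraries (log2 CPM) on the x axis and its log2 fold change, superficial over deep, on the y axis. The 303 calls higher in superficial tissue lie above 0 and the 424 higher in deep tissue below it. The former hold more points at low levels, and the point farthest to the right is the most abundant identifier.

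Calls with a common sign in all rats and a mean level of 3 log2 CPM or more numbered 203 for superficial and 372 for deep tissue, and the 2 of largest change are given for each. ENSRNOG00000012094 had 13.6, 24.6 and 26.3 CPM in the superficial and 5.1, 8.57 and 11 CPM in the deep libraries of epileptic rats 1, 2 and 3. The sublayers did not overlap, although rat 1 lay lowest in both. Within rats the log2 ratio was 1.42, 1.52 and 1.26 (mean 1.40 ± 0.13, SD, n = 3), and the fitted log2 fold change was 1.38 (SE 0.10, edgeR adjusted p = 4.229e-05). In control rats the same identifier stood at 30.8, 31.6 and 37.6 CPM in superficial and 18, 18.6 and 24.1 CPM in deep libraries, so that both sublayers of every epileptic rat lay below the control range of that sublayer. Its sublayer difference in controls was 0.72 (SE 0.07), and the direct test of the difference between conditions gave 0.67 with an adjusted p of 0.131, which did not pass.

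ENSRNOG00000014290 was the steadiest of the 4. It had 33, 33 and 22.5 CPM in superficial and 16.2, 17.3 and 11.6 CPM in deep epileptic libraries of rats 1, 2 and 3, again without overlap. The log2 ratio was 1.02, 0.93 and 0.96 in the 3 rats (mean 0.97 ± 0.05, SD, n = 3), with a fitted value of 0.96 (SE 0.08, edgeR adjusted p = 0.0001598). Control rats gave 35.5, 25.7 and 30 CPM in superficial and 16.7, 13.2 and 13.6 CPM in deep libraries. Levels of the 2 conditions overlapped in each sublayer, and the fitted difference in controls was 1.05 (SE 0.07).

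In the deep direction, ENSRNOG00000006200 had 22.5, 28.1 and 16.5 CPM in deep and 4.42, 7.5 and 6 CPM in superficial libraries of epileptic rats 1, 2 and 3. Its log2 ratio was −2.35, −1.91 and −1.46 in rats 1, 2 and 3 (mean −1.91 ± 0.445, SD, n = 3), where the 3 control rats lay close together at −2.09, −2.1 and −2.02. The fitted log2 fold change was −1.92 (SE 0.15, edgeR adjusted p = 0.0001503) in epileptic and −2.07 (SE 0.11) in control rats. ENSRNOG00000030877 had 16.4, 22.8 and 16.6 CPM in deep and 3.67, 5.59 and 5.9 CPM in superficial epileptic libraries. Its ratio was likewise smallest in rat 3, at −1.49 against −2.16 and −2.03 in rats 1 and 2, and the fitted value was −1.90 (SE 0.14, edgeR adjusted p = 4.229e-05). Control deep libraries held 8.58, 8.79 and 9.38 CPM of it, all below the epileptic deep range, and control superficial libraries 2.92, 3.05 and 4.51 CPM. The control difference was −1.37 (SE 0.13), and the difference between conditions, −0.52, had an adjusted p of 0.723.

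**Figure D3:**
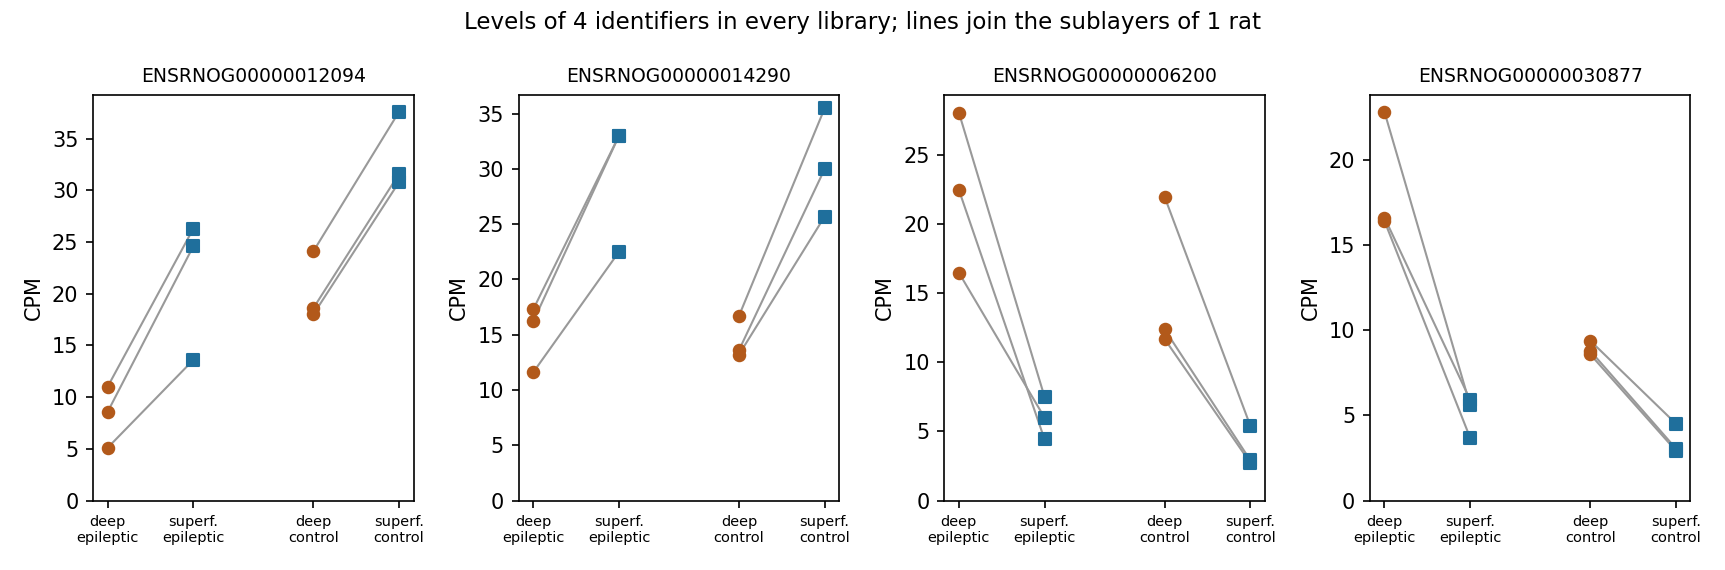
Library-size-scaled counts (CPM, linear axes from 0) of the 4 named identifiers in all 12 libraries. Circles are deep and squares superficial libraries, and lines join the sublayers of 1 rat. In epileptic as in control rats every line rises for ENSRNOG00000012094 and ENSRNOG00000014290 and falls for ENSRNOG00000006200 and ENSRNOG00000030877.

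The 3 epileptic rats did not show the sublayer pattern to the same degree. Across 9381 identifiers with a mean log2 CPM of at least 3, which are not independent replicates, the superficial minus deep differences of rats 1 and 2 had a Pearson r of 0.65 (Spearman rho 0.61). For rats 2 and 3 the r was 0.46 (rho 0.39), and for rats 1 and 3 it was 0.24 (rho 0.21). In control rats the 3 pairs gave r between 0.6 and 0.695 over 9453 identifiers. With no floor on the level, r was 0.39, 0.33 and 0.12 for rats 1 and 2, 2 and 3, and 1 and 3. Rat 1 had the widest differences, with a median absolute log2 difference of 0.177 against 0.102 and 0.105 in rats 2 and 3. Differences of at least 2-fold leaned to opposite sides, with 14 superficial and 27 deep in rat 1, 6 and 8 in rat 2, and 32 and 9 in rat 3. The biological coefficient of variation within rats was 7.39% in epileptic and 4.16% in control rats.

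Calls made in 2 epileptic rats were then read in the rat left out, whose libraries took no part in choosing them. Of 295 identifiers called in rats 1 and 3 and measured in all, 96.9% had the same sign in rat 2. Of 442 called in rats 2 and 3, 81.2% had the same sign in rat 1, but the directions parted: 98.6% of the deep-higher and 65.5% of the superficial-higher ones did so. Of 1828 called in rats 1 and 2, 74.5% had the same sign in rat 3, with 81.8% in the deep and 68.3% in the superficial direction. Median differences in rat 3 were 0.08 for the superficial-higher and −0.20 for the deep-higher identifiers. Of all 9396 identifiers at 3 log2 CPM or more, 53.2, 50.4 and 47.2% were higher in superficial tissue of rats 1, 2 and 3. The agreement in sign of identifiers that were not called was not counted. Without rat 3 the number called rose from 727 to 1837, of which 658 were among the 727. Without rat 1 it was 445 and without rat 2 it was 297. Each of these fits has 2 rats and 1 residual degree of freedom.

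A second reading used the controls alone to choose. In the 6 control libraries, 2375 of 14113 identifiers were called (16.8%), 1204 (8.53%) higher in superficial and 1171 (8.3%) higher in deep tissue, with 4184 (29.6%) at an unadjusted p below 0.05. Of the 2371 also tested in epileptic rats, 94.7% had the control direction in epileptic rat 1, 88.9% in rat 2 and 70.9% in rat 3. The median difference of the superficial-higher identifiers was 0.30, 0.16 and 0.09 in rats 1, 2 and 3, and that of the deep-higher ones −0.38, −0.24 and −0.16. In the fits of 3 rats, 70.3% of all identifiers tested in both conditions had the same sign, a share near that of rat 3. That share compares 2 fits, not a fit with 1 rat. Sign agreement of uncalled identifiers in single rats was not counted, so no result is drawn from the 70.9% of rat 3. Of the superficial-higher control calls, 93.3, 89.4 and 71.2% were higher in superficial tissue of epileptic rats 1, 2 and 3. Over all 9396 identifiers at 3 log2 CPM or more, 53.2, 50.4 and 47.2% were. Control calls thus kept their direction most often in rat 1 and least often in rat 3. Their medians lay farthest from 0 in rat 1 and nearest in rat 3. These rats lay at the 2 ends of the first principal component, and rat 1 also had the widest differences over all identifiers at that level. Rat 3 was the rat whose alignments outside exons went up, and those without a unique place down, in the superficial library. The part of these shifts in its smaller medians of control calls was not tested.

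**Figure D4:**
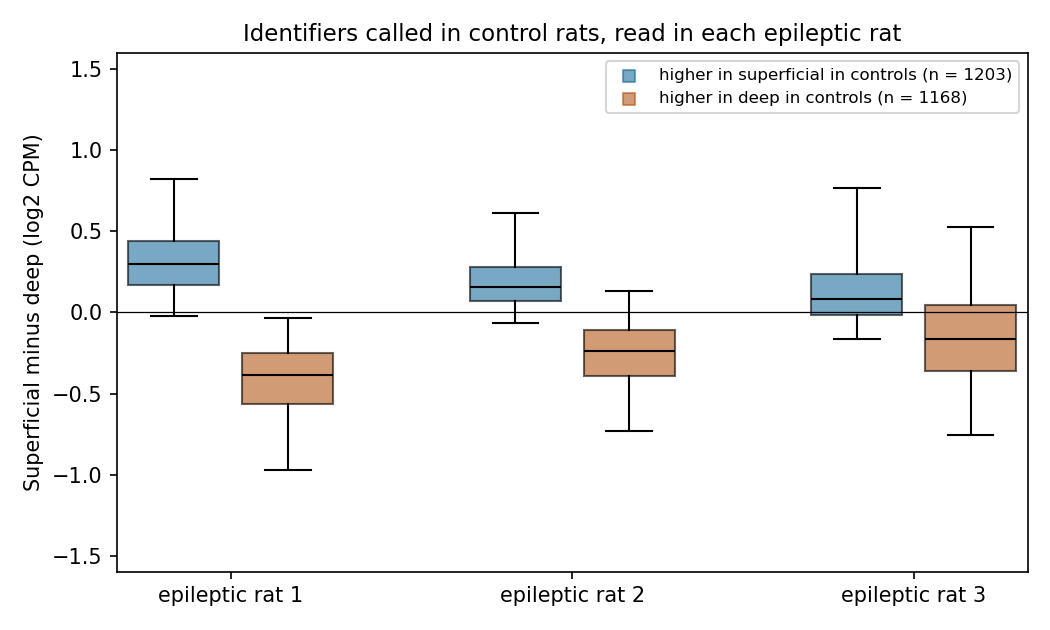
Superficial minus deep differences (log2 CPM, y axis) in each epileptic rat for identifiers called in control rats, 1203 higher in superficial (blue) and 1168 higher in deep tissue (brown). Boxes span the quartiles with the median as a line, and whiskers the 5th to 95th percentile of identifiers. The medians lie farthest from 0 in rat 1 (0.30 and −0.38) and nearest to it in rat 3 (0.09 and −0.16).

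Read the other way, most identifiers called in epileptic rats had the same direction in controls. Of the 727, 700 were tested in controls, and 671 (95.9%) had the same sign there, against 70.3% of all identifiers tested in both. The share was 99.5% for the deep-higher (421 of 423) and 90.3% for the superficial-higher identifiers (250 of 277). In controls 528 (75.4%) were themselves called in the same direction and 2 in the opposite one. Of all 13945 identifiers tested in both, 2185 (15.7%) were called in controls in the same direction and 186 in the opposite one. Median log2 fold changes of the deep-higher identifiers were −0.40 in epileptic and −0.34 in control rats, and those of the superficial-higher ones 0.46 and 0.35. A smaller median in controls follows in part from choosing in epileptic rats. A further 27 calls had too few counts to be tested in controls, with a median of 3.33 counts per control and 82.5 per epileptic library. Of these 27, 26 were higher in superficial tissue in the fit. They passed the count filter in epileptic libraries only, and the directions of all such identifiers were not counted, so no result on direction is drawn. Not all had 1 sign in every rat: ENSRNOG00000000451 had −0.83, 1.14 and 1.36 in rats 1, 2 and 3.

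Whether epilepsy altered the contrast of a given identifier was tested as an interaction of sublayer and condition. With edgeR 0 of 14791 identifiers (0%) passed, and 976 (6.6%) had an unadjusted p below 0.05. There were 2 calls by DESeq2, 107 by limma-voom when libraries were weighted by quality, and 84 and 12 by edgeR without epileptic rat 1 or 3. The identifier of smallest p, ENSRNOG00000013578, had 2.09, 10.8 and 45.2 CPM in superficial and 1.29, 6.93 and 20.2 CPM in deep libraries of epileptic rats 1, 2 and 3. Superficial libraries were thus the higher ones in each epileptic rat, over a wide range of levels. In controls they were the lower ones, at 0.765, 1.55 and 1.45 against 1.91, 2.04 and 2.79 CPM, from 16 to 47 counts per library. The difference between the log2 fold changes was 1.76, with an edgeR adjusted p of 0.122 that did not pass. ENSRNOG00000005195, at far higher levels, had 342, 610 and 1710 CPM in superficial against 315, 571 and 1290 CPM in deep epileptic libraries. Its control libraries held 272, 327 and 291 CPM in superficial and 367, 463 and 331 CPM in deep tissue, and the difference was 0.58 (adjusted p = 0.131). In epileptic rats alone its sublayer difference was not called (0.19, edgeR adjusted p = 0.1421).

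In the other direction, ENSRNOG00000002773 was lower in superficial tissue of epileptic rats, with 35.8, 43 and 30.4 against 60.2, 59.5 and 45.9 CPM in deep libraries. Control superficial libraries held 39.6, 51.4 and 44.7 CPM of it, overlapping with 48.3, 53.2 and 48.6 CPM in deep ones. ENSRNOG00000021745 was higher in superficial tissue of controls, at 71.5, 63.8 and 54.4 against 55.5, 38.6 and 36.6 CPM. In epileptic rats its sublayers were close, at 107, 61.6 and 51 CPM in superficial and 92.9, 57.7 and 50.8 CPM in deep libraries. The differences between conditions were −0.45 and −0.44 on the log2 scale, and both had an adjusted p of 0.295.

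The 2 directions differed in the abundance of the identifiers they held. In epileptic rats the median level of calls was 4.40 log2 CPM for superficial-higher and 5.28 for deep-higher identifiers, and in controls it was 5.95 and 4.26. Of the epileptic calls with a mean log2 CPM under 2, 69% were higher in superficial tissue (49 of 71), and of those at 8 and over 31.9% (15 of 47). In controls the shares ran the other way, 27.5% of 247 calls under 2 and 73.6% of 212 calls at 8 and over. Over all identifiers of these classes, called or not, 52.7% under 2 and 47.9% at 8 and over were higher in superficial tissue of epileptic rats. In controls these shares were 40.6 and 68.2%, so that the control order was present over all identifiers and the epileptic one was slight there. The order in epileptic rats was not seen without rat 3: in rats 1 and 2 alone the shares were 52.6% of 196 and 69.3% of 114. Without rat 1 they were 96.7% of 30 and 21.4% of 28, and without rat 2 70.5% of 44 and 21.1% of 19. DESeq2 on all 3 epileptic rats gave 64.3% under 2 (9 of 14) and 36.5% at 8 and over (19 of 52). The share at 8 and over was 53% in the model of all 12 libraries and 51.4% with sample quality weights, so that the lean of abundant calls to deep tissue was present in some fits and not in others. Rat 3 was also the rat in which alignments outside exons rose, and those without a unique place fell, from deep to superficial. The part of these shifts in this order was not tested.

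**Figure D5:**
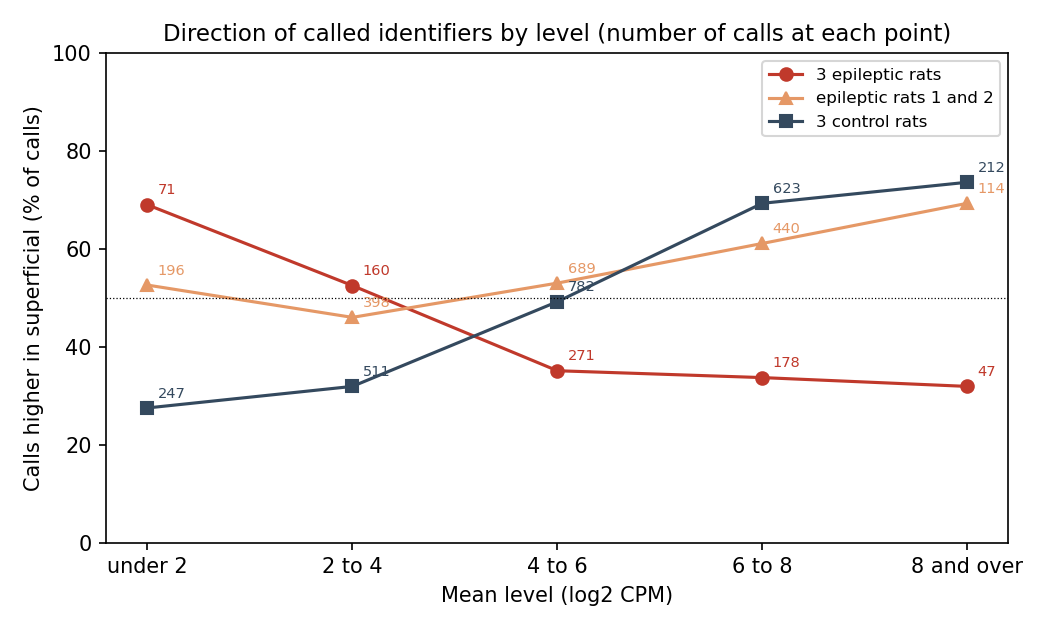
Share of called identifiers that were higher in superficial tissue (y axis, percent of calls) in 5 classes of mean level (x axis, log2 CPM), with the number of calls beside each point. The share falls from 69 to 31.9% over the 3 epileptic rats and rises from 27.5 to 73.6% in the 3 control rats, and it ends at 69.3% in epileptic rats 1 and 2 alone.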

How the data were processed

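The authors deposited 1 table of raw read counts per library, whole numbers for 32662 Ensembl gene identifiers and 5 summary tallies. The build Rnor_6.0 and the tools STAR 2.5.0c, HTSeq 0.6.1, SAMtools 0.1.19 and FastQC 0.11.3 are listed in the submitters' processing notes, with no roles; settings, annotation release and strand use are not given in the sources used here. Reads of overlapping, antisense or near-identical genes may therefore not be told apart. The tallies entered neither library sizes nor tests.

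The main fits used edgeR 4.0.16 in R 4.3.3: filterByExpr (minimum count 10, minimum total 15), TMM scaling and the quasi-likelihood test with robust dispersions, Benjamini-Hochberg adjustment over all identifiers tested and a threshold of 0.05. The 6 epileptic libraries were fitted alone, with the rat as a block, because the spread within rats was larger than in controls; controls were fitted likewise, and the difference between conditions in 1 model of 12 libraries. The SE is the absolute log2 fold change divided by the square root of F. CPM used TMM-scaled library sizes, and log2 CPM a prior count of 2. DESeq2 1.42.0 and limma 3.58.1 served as alternatives.

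Replicate numbers were taken as the rat: deviations of deep and superficial libraries of 1 number correlated at 0.793, 0.74 and 0.816, against at most −0.0879 between numbers, and the protocols cut both sublayers from each brain. Replicates of a group differed by a chi-square of 22.5 to 115 per identifier, so no library was a copy.

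Identifiers were eligible for naming if called, at 3 log2 CPM or more on average, and of 1 sign in all rats; the 2 of largest change in each direction were taken, and for the difference between conditions the 2 of smallest p in each direction. The comparison, gene lists and rules were chosen with earlier results of these data known. The gene lists and the alternative without mitochondrially encoded genes needed symbols and were not run, so no result is given for them.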

Additional observations from a re-analysis of the deposited data

Results flagged for a closer look

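For 2 of the 8 identifiers named above, the superficial minus deep difference had 1 sign in all 3 epileptic rats and the opposite sign in all 3 control rats. For ENSRNOG00000013578 the log2 ratios were 0.7, 0.635 and 1.16 in epileptic and −1.32, −0.40 and −0.94 in control rats, and the fitted difference between conditions was 1.76 (edgeR adjusted p = 0.122). Over 11 alternatives that difference ranged from 1.497 to 2.007, and the adjusted p lay below 0.05 in 5 of them (range 1.486e-09 to 0.9999). The control ratios of ENSRNOG00000013578 rest on 16 to 47 counts per library. For ENSRNOG00000005195 the ratios were 0.12, 0.10 and 0.41 in epileptic and −0.43, −0.50 and −0.18 in control rats, with a difference of 0.581 (edgeR adjusted p = 0.131). Its sublayer difference was called in control rats (−0.38, edgeR adjusted p = 6.977e-05) but not in epileptic rats (0.19, edgeR adjusted p = 0.1421). The adjusted p of its difference between conditions also lay below 0.05 in 5 of 11 alternatives (range 2.825e-11 to 0.9999). Both were named for their small p, which favours such opposite signs, and identifiers that were not named were not searched for this pattern.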

How the results depend on the processing

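The 727 calls between the sublayers of epileptic rats became 747 with RLE size factors and 778 with limma-voom. They became 1235 with no low-count filter (641 higher in superficial), 423 with DESeq2, 2038 with limma-voom and sample quality weights (1025 higher in superficial), 1484 in 1 model of all 12 libraries (745 higher in superficial) and 0 with no replicate block, with 573 at an unadjusted p below 0.05. Leaving out 1 epileptic rat gave 297 to 1837. All 727 calls were among the 2038, and 723 among the 1484. The 2375 calls in controls became 975 with DESeq2, 1248 in the model of all 12 libraries and 349 with no replicate block, and 1575 to 2792 without 1 control rat. For the difference between conditions, 0 calls became 178 with no low-count filter, 2 with DESeq2 and 107 with sample quality weights, and 0 to 84 without 1 rat. With RLE size factors or no replicate block it stayed at 0, with 951 and 67 at an unadjusted p below 0.05 in edgeR. The cause of these changes was not tested, except that fits without a rat have fewer samples. The 4 identifiers named for the sublayer difference kept their sign in all 10 alternatives and passed in 9. Without the block they did not pass (adjusted p = 0.9559, 0.8498, 0.4 and 0.3046 in the order named; lowest over the alternatives 6.769e-54, from a fit of 2 rats). With 3 rats, no permutation test on single values could go below p = 0.25. The correlations between rats without a floor on the level, and with a prior count of 0.5 (0.648, 0.241 and 0.459), were chosen after seeing the data.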

Other observations

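Identifiers whose level was raised in epileptic rat 2 or 3 leaned to deep tissue in control rats, and this lean was not seen in every epileptic rat. The choice of these identifiers was made after their values were seen, so the values are a description. With a mean log2 CPM of at least 3, 192 identifiers stood at least 2-fold above the 6 control libraries in epileptic rat 3, as the mean of both sublayers. In control rats they leaned to deep tissue, with median superficial minus deep differences of −0.37, −0.22 and −0.37 in rats 1, 2 and 3. The control medians over all 9396 identifiers were not computed. In the control fit, the median log2 fold change was 0.002 over all identifiers and −0.09 for those under 2 log2 CPM. The floor was a mean over 12 libraries, so raised epileptic levels may have carried identifiers of low control level past it. In epileptic rat 1 the median was −0.20, with 22.9% higher in superficial tissue, against 53.2% of all 9396 identifiers. In epileptic rat 2 the median was −0.02, with 49% higher in superficial tissue against 50.4% of all.

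The 74 identifiers at least 2-fold above controls in epileptic rat 2 also leaned to deep tissue in controls, at −0.33, −0.12 and −0.24. Their overlap with those raised in rat 3 was not counted, and the same control libraries served for both sets. In epileptic rat 3 the median of the 74 was 0.335, with 71.6% higher in superficial tissue, against 47.2% of all identifiers. In epileptic rat 1 it was −0.05, with 41.9% higher in superficial tissue. The number raised in this way in epileptic rat 1 was 20, with medians of 0.17 in rat 2 and 0.02 in rat 3. Those at least 2-fold below controls numbered 36 in rat 1, 16 in rat 2 and 15 in rat 3, and their medians in the other epileptic rats ranged from −0.27 to 0.12.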
